A study of Mus musculus with 5 samples.

Results

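Secreted synapse-organising factors are proteins that astrocytes release to control how neighbouring neurons build and mature their synapses. The 10 genes described here were chosen by symbol from the deposited count table. They are Sparc and Sparcl1, the thrombospondins Thbs1, Thbs2, Thbs3 and Thbs4, the glypicans Gpc4, Gpc5 and Gpc6, and Chrdl1. All 10 were found among the 35976 genes of the table, and 9 of them had enough counts to be tested.

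The libraries came from amygdala cells of mice of genotype Ccr2::CreERT2/+;DTR/+, in which a tamoxifen-activated Cre sits at the Ccr2 locus and a receptor for diphtheria toxin (DTx) is carried as 1 allele. Both groups received tamoxifen, 18 days of tube restraint, fear conditioning and extinction, and they differed in whether saline or DTx was given during restraint. The comparison asks what loss of CCR2-expressing monocytes under chronic stress does to astrocytes of the basolateral amygdala. There were 2 saline libraries, called replicates 1 and 2, and 3 libraries labelled DTx, called 5A, 6A and 7A after their column names. The labels give neither the age of the mice nor which cells other than Ccr2-expressing ones could carry the active receptor. Nor do they state that the libraries came from separate animals, and p-values then measure only the spread between these libraries, which may be technical.

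Thrombospondins are large matrix glycoproteins that induce the structure of excitatory synapses through the neuronal calcium channel subunit α2δ-1, which the gene Cacna2d1 encodes. Hevin, the product of Sparcl1, bridges neurexins and neuroligins across the cleft, and SPARC, its smaller relative, is known to oppose hevin. Glypicans are heparan sulfate proteoglycans on a lipid anchor, and Gpc4 and Gpc6 are known for recruiting AMPA-type glutamate receptors to young synapses. Chrdl1 is a secreted antagonist of bone morphogenetic proteins that is known to drive the switch to GluA2-containing AMPA receptors.

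Total counts were 15961220 to 23720299 per library. The cells had been selected on beads against ACSA-2, the protein of Atp1b2, and the 12 astrocyte markers summed to 27620 to 30980 CPM (counts per 1000000 counts of the library, after scaling) in every library. The selection was not pure. Markers of oligodendrocytes summed to 60160 and 92740 CPM in saline and to 42920, 44260 and 90620 CPM in 5A, 6A and 7A. Ccr2, the gene that carries the Cre, had 0 counts in both saline libraries and 54, 4 and 4 counts in 5A, 6A and 7A. It was thus higher, not lower, in the libraries labelled for depletion. Of 11 monocyte and border macrophage genes, Ccr2 among them, 6 had enough counts to be tested. All 6 had a positive log2 fold change, libraries labelled DTx over saline, with a median of 1.82. Of them 0 passed an adjusted p of 0.05 in edgeR. The genes of this list that were not tested, other than Ccr2, were near 0. Ly6c2 and S100a9 had 0 and 2 counts and S100a8 0 and 1 in saline, and each had 0 in the libraries labelled DTx. Plac8 had 2 and 0 counts against 1, 5 and 0. Depletion of monocytes was not tested. Xist stood at 172.4 and 128.8 CPM in saline and at 0.158, 0 and 0 CPM in the libraries labelled DTx, while the Y-linked Ddx3y was at 0.184 and 0.0448 CPM against 121.9, 115.9 and 134.6 CPM. Sex-chromosome state and the treatment label thus coincide and cannot be told apart for any gene below, and Gpc4 and Chrdl1 lie on chromosome X.

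Together the 10 genes held 1.47 and 1.73% of all counts in saline and 2.49, 2.63 and 1.81% in libraries 5A, 6A and 7A, almost all of it from Sparcl1 and Sparc. None of the 9 genes tested passed an adjusted p of 0.05 in edgeR's quasi-likelihood test, where 0.0322% of all 15532 genes tested passed. The genes that passed were Xist and the Y-linked Ddx3y, Eif2s3y, Uty and Kdm5d, which follow sex-chromosome state. DESeq2, limma-voom and edgeR's likelihood ratio test also called 0 of the 9 members. At an unadjusted p under 0.05 there was 1 member, Sparc, against 6.68% of all genes. Of the 9, 7 had a positive and 2 a negative log2 fold change, with a median of 0.28 beside 0.0024 over all genes tested. Fold changes are the libraries labelled DTx over saline.

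**Figure D1:**
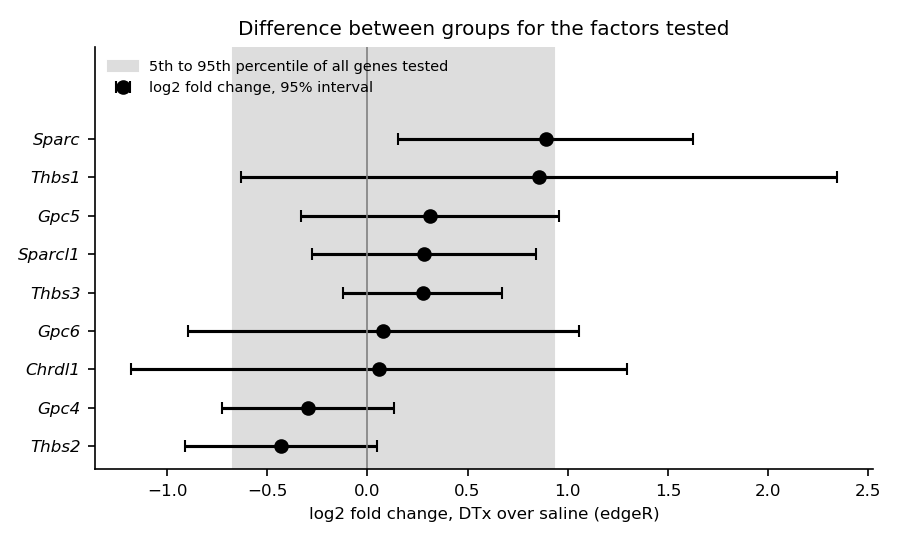
The log2 fold change of each tested factor (x axis, libraries labelled DTx over saline) is drawn with its 95% interval, and the grey band spans the 5th to the 95th percentile of all genes tested, -0.67 to 0.93. The interval of Sparc alone lies above 0, from 0.15 to 1.63, and all 9 point estimates fall within the band.

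The groups did not overlap for 4 of the 9. Sparc and Thbs3 were above saline in every library labelled DTx, as were 12.1% of all genes tested. Thbs2 and Gpc4 were below it, as were 9% of all genes (1398 of 15532). The 250 bases before the RefSeq start of these 4 genes (GRCm38.p6) are shown because they are the members whose libraries separated by label. Capitals mark matches, on either strand, to 4 promoter motifs. The TATA box was searched as TATAAA. The box bound by nuclear factor Y was searched as CCAAT. The GC box bound by Sp1 was searched as GGGCGG. The half-site of nuclear factor I was searched as TTGGCA, and it shares bases with the nuclear factor Y box where both match.
Sparc, chr11:55420081-55420330, minus strand: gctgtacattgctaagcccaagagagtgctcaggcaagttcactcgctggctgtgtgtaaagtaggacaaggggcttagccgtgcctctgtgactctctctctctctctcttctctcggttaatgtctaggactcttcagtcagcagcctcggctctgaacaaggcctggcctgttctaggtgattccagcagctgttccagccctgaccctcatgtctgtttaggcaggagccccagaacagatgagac
Thbs3, chr3:89214930-89215179, plus strand: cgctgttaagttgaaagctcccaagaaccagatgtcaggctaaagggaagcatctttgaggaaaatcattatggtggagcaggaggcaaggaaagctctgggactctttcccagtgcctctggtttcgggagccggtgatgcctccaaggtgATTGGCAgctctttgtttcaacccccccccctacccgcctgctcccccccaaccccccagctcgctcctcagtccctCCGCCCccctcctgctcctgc
Thbs2, chr17:14694263-14694512, minus strand: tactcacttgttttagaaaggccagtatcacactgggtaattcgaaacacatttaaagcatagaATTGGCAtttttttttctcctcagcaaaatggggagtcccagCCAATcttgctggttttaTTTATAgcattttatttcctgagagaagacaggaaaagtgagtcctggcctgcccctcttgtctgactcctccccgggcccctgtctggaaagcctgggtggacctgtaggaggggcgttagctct
Gpc4, chrX:52164924-52165173, minus strand: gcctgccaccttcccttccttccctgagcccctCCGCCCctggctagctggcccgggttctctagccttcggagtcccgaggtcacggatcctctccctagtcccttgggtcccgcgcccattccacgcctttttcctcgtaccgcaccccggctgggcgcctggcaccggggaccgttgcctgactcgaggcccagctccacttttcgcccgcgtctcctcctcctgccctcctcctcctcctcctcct

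Of these motifs, the TATA box occurs in 12.4%, the nuclear factor Y box in 33.8%, the GC box in 32.7% and the nuclear factor I half-site in 12.3% of 32851 promoter windows of the same length. Thbs2 and Thbs3 both hold a nuclear factor Y box and a nuclear factor I half-site, Thbs2 a TATA box, and Thbs3 and Gpc4 a GC box. The Sparc window holds none of them. An AP-1 site, searched as TGACTCA and found in 4.46% of windows, is in none of the 4, nor is a STAT site, searched as TTCNNNGAA and found in 7.02%. A match is a match of letters, not a shown site of binding. Gpc4 has 18 CpG dinucleotides, and Sparc, Thbs2 and Thbs3 have 4, 3 and 6 beside a median of 6.

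Per kilobase of exon, Sparcl1 and Sparc were the 2 most abundant members in every library, with means over the 5 libraries of 4111 and 2040 CPM per kb. Gpc5 followed at 72.13, and then Gpc4 at 6.47, Gpc6 at 4.35, Thbs2 at 3.81 and Thbs3 at 2.96 CPM per kb. The lowest were Chrdl1 at 0.253, Thbs1 at 0.116 and Thbs4 at 0.0157 CPM per kb. Each of the first 3 genes was separated from its neighbour in this order in all 5 libraries. From Gpc4 down to Thbs3 the ranges of neighbours overlapped, as did those of Chrdl1 and Thbs1.

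**Figure D2:**
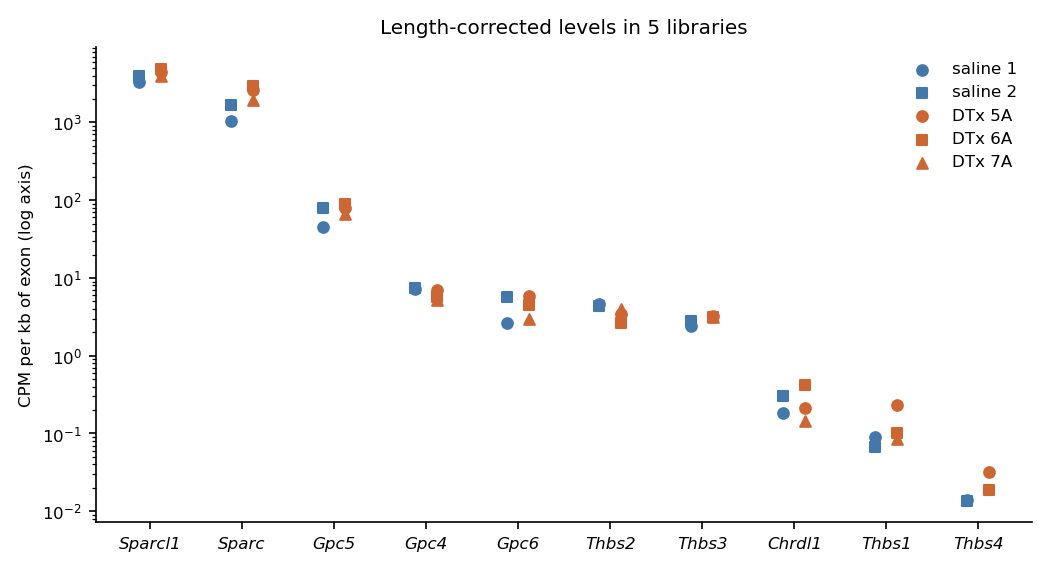
TMM-scaled CPM per kb of merged exon (y axis, log scale) is plotted for the 10 factors, with 1 point per library, saline in blue and the libraries labelled DTx in orange. The means run from 4111 CPM per kb for Sparcl1 to 0.0157 for Thbs4, whose library 7A, at 0 counts, cannot be drawn on this axis.

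Sparc, the counter-adhesive matrix protein (chromosome 11, 55394159 to 55420080, GRCm38), stood at 3937 and 6283 CPM in saline and at 9923, 11146 and 7346 CPM in 5A, 6A and 7A. All 3 libraries labelled DTx lay above both saline libraries, and saline replicate 1 was the lowest of all. The means were 5110 ± 1659 CPM (SD, n = 2) and 9471 ± 1940 CPM (SD, n = 3). This gave a log2 fold change of 0.89 ± 0.31 (SE), or 1.85-fold, with an edgeR adjusted p of 0.742, so Sparc did not pass over all genes. It ranked 507 of 15532 by p. Without saline replicate 1 the log2 fold change was 0.59, and without saline replicate 2 it was 1.27.

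Sparc transcripts are also abundant in microglia and in endothelial cells. In bulk libraries, fewer cells of a type and less RNA per cell cannot be told apart. The 12 microglia markers, of which none was at 0 in all libraries, summed to 105.6 and 261.8 CPM in saline and to 439.7, 317.8 and 258.3 CPM in 5A, 6A and 7A. All 12 had a positive log2 fold change and 0 passed the test, and C1qb, a complement gene among the most abundant of them, ran from 13.28 to 81.08 CPM. With the mean of these markers as a covariate the log2 fold change of Sparc was 0.43 ± 0.37 (SE, edgeR adjusted p = 0.999). The 10 endothelial markers summed to 25.18 and 31.13 CPM in saline and to 32.04, 21.25 and 38.02 CPM in 5A, 6A and 7A. The part of microglia in the Sparc difference was not tested.

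Sparcl1 (chromosome 5, 104079108 to 104114088), which encodes hevin, was at 9709 and 11675 CPM in saline and at 12976, 14460 and 11553 CPM in 5A, 6A and 7A. The groups overlapped, since library 7A lay below saline replicate 2. With a log2 fold change of 0.28 ± 0.24 (SE, 95% interval -0.28 to 0.84), Sparcl1 had an edgeR adjusted p of 0.811. The value was 0.15 without saline replicate 1 and 0.097 ± 0.35 (SE) with the microglia covariate. It ranked 4 to 7 among all genes by count in the 5 libraries, and Sparc ranked 6 to 19.

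Set against each other within a library, which needs no scaling, these relatives separated the groups. Sparc alone already did so, as did 12.1% of all genes tested upward and 9% downward. The share of gene pairs whose ratio separates the groups was not computed. There were 2.47 and 1.86 Sparcl1 counts for each Sparc count in saline and 1.31, 1.30 and 1.57 in libraries 5A, 6A and 7A. Corrected for exon length, the ratios were 3.18 and 2.40 in saline and 1.69, 1.67 and 2.03 in the libraries labelled DTx. Sparcl1 exceeded Sparc in all 5 libraries, and the saline ratios differed from each other by more than the distance from saline replicate 2 to library 7A. The microglia sum above was lowest in saline replicate 1, where this ratio was highest. Those sums overlapped between the groups, at 261.8 CPM in saline replicate 2 and 258.3 CPM in library 7A. The part of microglia in the ratio was not tested. The astrocyte markers did not move as 1 group. Of these 12 genes 6 had a positive and 6 a negative log2 fold change and 0 passed the test, with the 2 most abundant, Aldoc and Slc1a2, at -0.05 and -0.02. The filament gene Gfap, chosen after its values were seen like the next 2 markers, was above saline in every library labelled DTx, with a log2 fold change of 1.30 ± 0.42 (SE, edgeR adjusted p = 0.742). Aqp4 and Atp1b2 lay below saline in all of them, with log2 fold changes of -0.33 and -0.26. Slc1a3, also chosen after its values were seen, was at 1669 and 2343 CPM in saline. In 5A, 6A and 7A it was at 4019, 5229 and 2073 CPM, so its groups overlapped. The log2 fold change of Slc1a3 was 0.91 ± 0.41 (SE, edgeR adjusted p = 0.764).

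**Figure D3:**
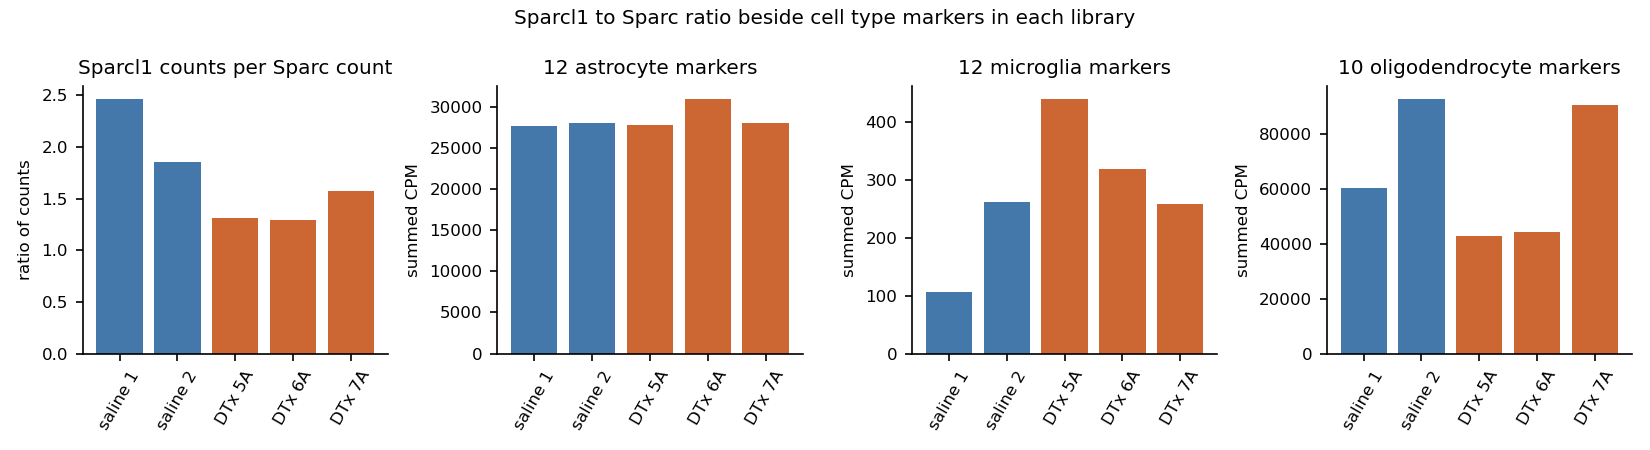
Bars give, for each library (x axis), the number of Sparcl1 counts per Sparc count and the summed CPM of 12 astrocyte, 12 microglia and 10 oligodendrocyte markers, with saline in blue and the libraries labelled DTx in orange. The ratio lies between 1.30 and 1.57 in the libraries labelled DTx and is 1.86 or more in saline, and the microglia sum is lowest in saline replicate 1 at 105.6 CPM.

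The neurexins and neuroligins that hevin bridges were all detected. Of 6 genes tested, 0 passed in either direction, and all 6 log2 fold changes were positive with a median of 0.28, against 50.4% of all genes with a positive one. Nrxn3 was at 17.53 and 13.8 CPM in saline and at 19.9, 26.35 and 19.47 CPM in 5A, 6A and 7A, a log2 fold change of 0.48 ± 0.21 (SE, edgeR adjusted p = 0.762). Those of Nlgn2 and Nrxn2 were 0.29 and 0.27, and their groups overlapped. Neuronal markers were positive for 10 of 12 in the same comparison. They summed to 395 and 351.2 CPM in saline and to 421.7, 552.8 and 516.2 CPM in 5A, 6A and 7A, with Snap25 at 120.7 to 147.1 and Nefl at 71.32 to 125.4 CPM. The part of neuronal RNA in these partner genes was not tested.

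Among the thrombospondins, Thbs2 and Thbs3 were measured well and Thbs1 and Thbs4 barely. Thbs2, a matrix thrombospondin of the trimeric subgroup (chromosome 17, 14665500 to 14694262), was at 32.74 and 30.42 CPM in saline and at 24.07, 18.27 and 27.89 CPM in 5A, 6A and 7A. Every library labelled DTx lay below both saline libraries. Their log2 fold change was -0.43 ± 0.20 (SE, 95% interval -0.91 to 0.05), with an edgeR adjusted p of 0.764. Without library 6A the value was -0.28. Thbs2 is also expressed by fibroblasts of the vessels and meninges. Their 10 markers summed to 79.28 and 92.95 CPM in saline and to 111.3, 82.52 and 104.3 CPM in 5A, 6A and 7A, so these sums overlapped. Of the 10, 9 had a positive log2 fold change, and their part in the Thbs2 value was not tested.

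Thbs3, a thrombospondin of the pentameric subgroup (chromosome 3, 89215180 to 89226841), was at 11.71 and 13.62 CPM in saline and at 15.84, 15.1 and 15.08 CPM in 5A, 6A and 7A. The 3 libraries labelled DTx lay close together and above saline, by a log2 fold change of 0.28 ± 0.17 (SE, edgeR adjusted p = 0.779). That value was 0.17 without saline replicate 1 and 0.14 ± 0.20 (SE) with the microglia covariate. Exons of Mtx1 on the opposite strand share 6.59% of its exon length, and some of its counts may belong to Mtx1, since no source used here states whether counting used the strand. Per kb, the ratio of Thbs2 to Thbs3 was 1.93 and 1.54 in saline and 1.05, 0.833 and 1.27 in libraries 5A, 6A and 7A, so Thbs2 was the more abundant of the pair in 4 of 5 libraries.

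Thbs1, the trimeric thrombospondin first purified from platelets (chromosome 2, 118111876 to 118127133), had 12 and 9 counts in saline and 27, 10 and 9 counts in libraries 5A, 6A and 7A. Its levels were 0.553 and 0.403 CPM against 1.43, 0.621 and 0.512 CPM, and the groups overlapped. The log2 fold change of 0.86 ± 0.62 (SE, edgeR adjusted p = 0.8) was 0.24 without library 5A. Adding the microglia covariate gave 0.48 ± 0.93 (SE). The same library was highest for markers of monocytes and border macrophages, whose 11 genes summed to 17.94 and 24.77 CPM in saline and to 129.9, 17.59 and 51.97 CPM in 5A, 6A and 7A. Mrc1 and F13a1 led that list at 37.9 and 51.57 CPM in library 5A, no gene of it was at 0 in all libraries, and its part in the Thbs1 value was not tested. Thbs4, the pentameric thrombospondin of muscle and reactive astrocytes (chromosome 13, 92751586 to 92794818), had 1 and 1 counts in saline and 2, 1 and 0 counts in libraries 5A, 6A and 7A. It was not tested, and at this depth its 0 counts in library 7A allow a level of up to 0.171 CPM, which covers counting error only.

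**Figure D4:**
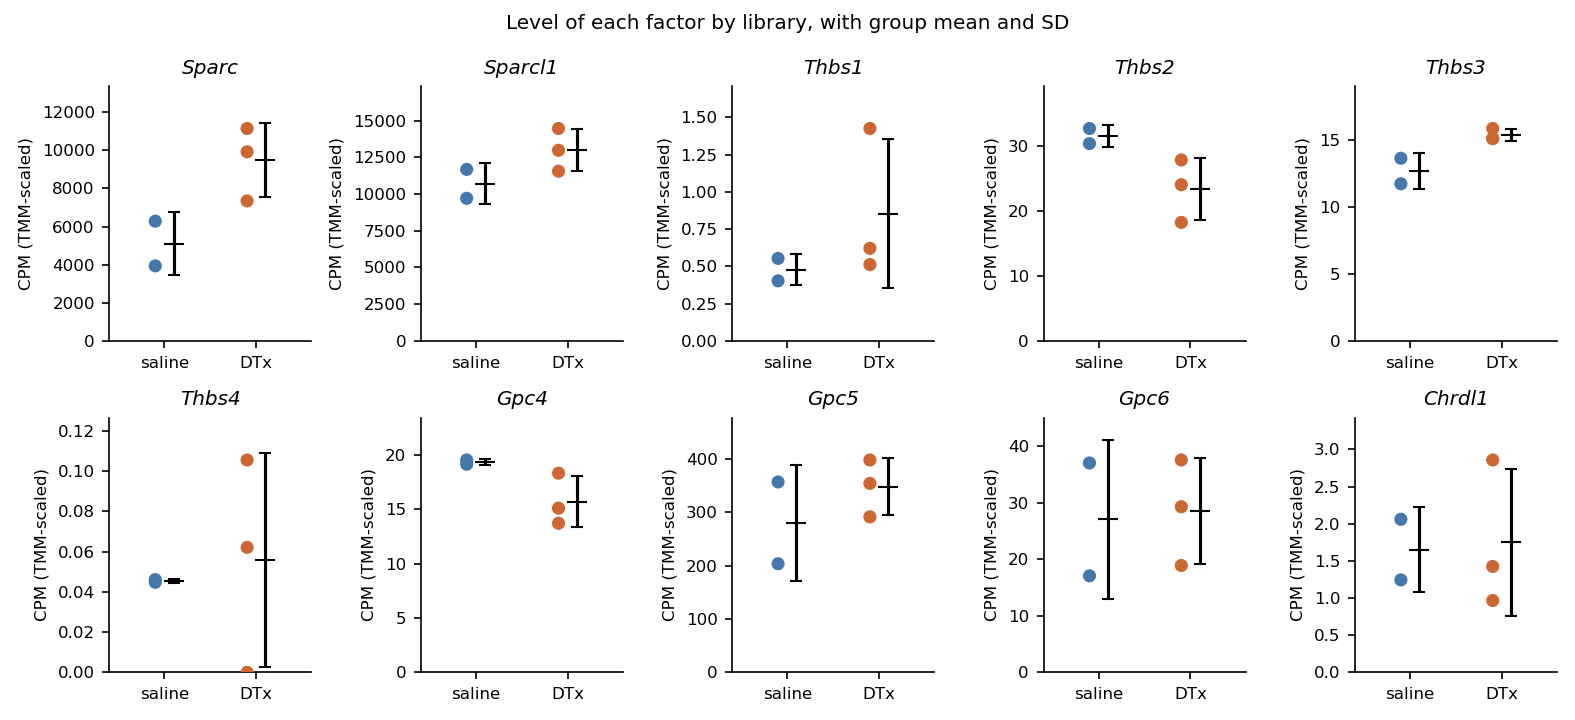
Each panel gives the TMM-scaled CPM (y axis, starting at 0) of 1 factor in the saline (blue) and DTx-labelled (orange) libraries, with 1 point per library, and the group mean with its SD (n = 2 and n = 3) beside the points. The points of Sparc, Thbs3, Thbs2 and Gpc4 separate by label, and those of the other 6 factors overlap.

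Receptors and binding partners of thrombospondins were mixed. Of 14 genes tested, 0 passed, 5 had a positive and 9 a negative log2 fold change, and the median was -0.04. Cacna2d1, the α2δ-1 subunit itself, was at 4.84 and 6.18 CPM in saline and at 18.32, 11.93 and 8.14 CPM in 5A, 6A and 7A. All libraries labelled DTx were above saline, which held for 12.1% of all genes tested. The log2 fold change of Cacna2d1 was 1.22 ± 0.37 (SE), with an edgeR adjusted p of 0.742, and the part of neuronal RNA in it was not tested. Itgb3, an integrin subunit, had a log2 fold change of -0.96 and Stim1, a calcium sensor of the endoplasmic reticulum, one of -0.36, both with overlapping groups.

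Gpc5 was the most abundant of the 3 glypicans. It made 84.9% (95% Wilson interval 83.9 to 85.9%) of the counts of the 3 glypicans in saline replicate 1 and 90.0% (89.3 to 90.7%) in library 6A, the lowest and the highest of the 5 libraries. These intervals cover counting error only. Gpc5, known as a glypican of mature astrocytes (chromosome 14, 115092201 to 116525192), was at 203.9 and 357.3 CPM in saline and at 354.5, 398.4 and 291.8 CPM in 5A, 6A and 7A. The saline libraries lay further apart than the means of the groups, which were 280.6 ± 108 CPM (SD, n = 2) and 348.3 ± 53.6 CPM (SD, n = 3). The log2 fold change was 0.31 ± 0.27 (SE, edgeR adjusted p = 0.817). It was -0.04 without saline replicate 1, 0.77 without saline replicate 2 and -0.16 ± 0.24 (SE) with the microglia covariate.

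Gpc4 (chromosome X, 52051007 to 52164923) was at 19.14 and 19.53 CPM in saline and at 18.32, 15.1 and 13.72 CPM in 5A, 6A and 7A. The saline libraries nearly coincided, and the libraries labelled DTx lay below them. Its log2 fold change was -0.30 ± 0.18 (SE, 95% interval -0.73 to 0.13), with an edgeR adjusted p of 0.779. With scaling to total counts the groups of Gpc4 overlapped. Gpc4 is also expressed in cells of the oligodendrocyte lineage, whose precursor markers summed to 768.4 and 963.8 CPM in saline and to 493.2, 684.2 and 965 CPM in 5A, 6A and 7A. Of these 10 markers 7 had a negative log2 fold change, with Olig1 and Sox10 at -0.19 and -0.79. The other 3, Pdgfra, Neu4 and Lhfpl3, had positive ones of 0.13, 0.09 and 0.39. Olig1 alone ran from 332.6 to 664.3 CPM, so the sum mostly follows this gene. The part of these markers in the Gpc4 value was not tested.

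Gpc6, the neighbour of Gpc5 (chromosome 14, 116924920 to 117979529), varied more within each group than Gpc4 and Gpc5, with a coefficient of variation of 52.2% in saline and 32.7% in the libraries labelled DTx. It was at 17.06 and 37.0 CPM in saline and at 37.53, 29.27 and 18.9 CPM in 5A, 6A and 7A. The 2 saline libraries thus spanned nearly the whole range, and the log2 fold change was 0.08 ± 0.40 (SE, edgeR adjusted p = 0.969). It was -0.38 without saline replicate 1, 0.74 without saline replicate 2, -0.17 without library 5A and 0.31 without library 7A.

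Of 15 tested genes on glypican receptors, heparan sulfate synthesis and AMPA receptor recruitment, 0 passed, with 9 positive and 6 negative log2 fold changes and a median of 0.10. Ptprd, a receptor tyrosine phosphatase of the LAR family, was at 393.7 and 448.6 CPM in saline and at 234, 234.7 and 324.9 CPM in 5A, 6A and 7A, a log2 fold change of -0.67 ± 0.20 (SE, edgeR adjusted p = 0.742). Nptx1, the neuronal pentraxin whose release Gpc4 is known to stimulate, was at 3.0 and 2.15 CPM in saline and at 4.54, 5.65 and 4.55 CPM in the same libraries. The groups separated for both genes, in opposite directions, and the log2 fold change of Nptx1 was 0.93 ± 0.29 (SE, edgeR adjusted p = 0.742). The part of neuronal RNA in the Nptx1 value was not tested. Gria1, an AMPA receptor subunit, was at 626.2 and 538.4 CPM in saline and at 931.9, 1164 and 624.6 CPM in 5A, 6A and 7A, with library 7A just below saline replicate 1.

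Chrdl1 (chromosome X, 143285674 to 143394263) had 27 and 46 counts in saline and 27, 46 and 17 counts in libraries 5A, 6A and 7A. At 1.25 and 2.06 CPM against 1.43, 2.86 and 0.968 CPM the groups overlapped fully, and libraries 6A and 7A were the highest and the lowest of all. The log2 fold change was 0.06 ± 0.52 (SE, 95% interval -1.18 to 1.30, edgeR adjusted p = 0.982), which is too wide to tell a doubling from no difference at this depth. It was -0.46 without library 6A.

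Ligands, receptors, inhibitors and targets of the bone morphogenetic proteins that Chrdl1 binds gave 0 of 18 tested genes past the threshold, 10 positive and 8 negative, with a median log2 fold change of 0.04. Bmp7, a ligand, was at 11.53 and 17.47 CPM in saline and at 25.87, 30.51 and 16.62 CPM in 5A, 6A and 7A, and its groups overlapped (log2 fold change 0.74 ± 0.31, SE, edgeR adjusted p = 0.745). The receptors Acvr1 and Bmpr1b had values of -0.51 and 0.34, also with overlap.

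Of the other members of these 4 gene families, 10 of 12 were tested, 0 passed, and 5 values were positive and 5 negative with a median of -0.15. Gpc3, which adjoins Gpc4 on chromosome X, was at 0.738 and 2.51 CPM in saline and at 9.66, 3.36 and 2.22 CPM in 5A, 6A and 7A, so the groups overlapped. The proteoglycans Spock3 and Spock2 had log2 fold changes of -0.62 and 0.37. Spock3 was at 186.6 and 224.7 CPM in saline and at 111.2, 93.52 and 196.3 CPM in 5A, 6A and 7A. Libraries 5A and 6A were the lowest for Spock3, as they were for the summed oligodendrocyte markers. All 10 of those markers had a negative log2 fold change, with a median of -0.46, and 0 passed. The part of oligodendrocyte RNA in the Spock3 value was not tested.

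Other factors that astrocytes release onto synapses gave 0 of 14 tested genes past the threshold, with 7 positive and 7 negative values and a median of 0.0027. Sema3a, a secreted guidance cue, had 2 and 0 counts in saline and 32, 19 and 4 counts in libraries 5A, 6A and 7A. The ratio of its summed, scaled counts was 23.0 (95% exact interval 6.07 to 194.7, counting error only), and the edgeR adjusted p was 0.742. Wnt7a was at 46.35 and 36.29 CPM in saline and at 33.36, 31.44 and 29.65 CPM in the libraries labelled DTx, and Tgfb3 at 54.1 and 56.04 against 34.89, 29.52 and 49.18 CPM. Both separated below saline, with log2 fold changes of -0.39 and -0.54 and an edgeR adjusted p of 0.745 each.

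**Figure D5:**
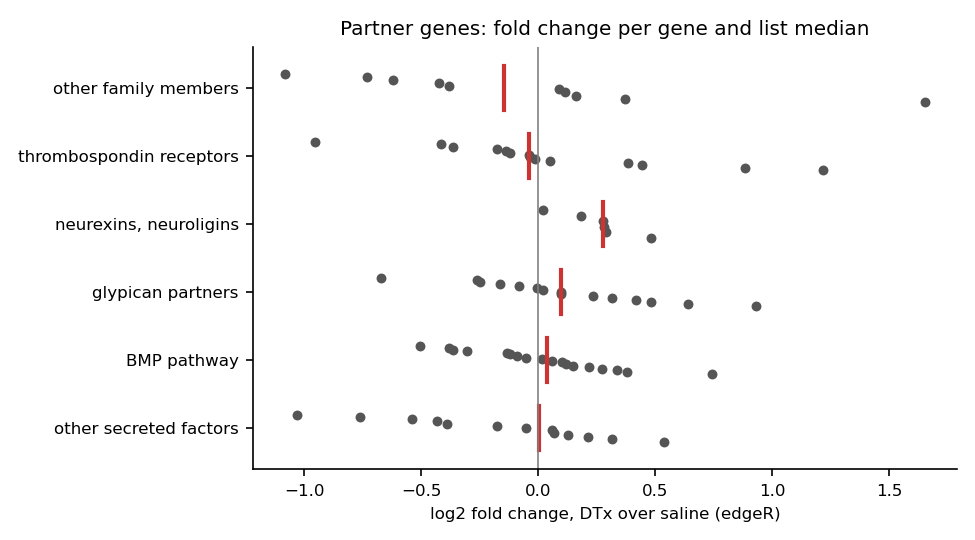
Each grey point is the log2 fold change (x axis, libraries labelled DTx over saline) of 1 tested gene in 6 lists of family members, partners and related factors, and the red line is the median of the list. Medians run from -0.15 for other family members to 0.28 for neurexins and neuroligins, and Sema3a, with 2 counts in saline, counts in its median but is not drawn.

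Across the 5 libraries the members did not share 1 pattern. Likeness was measured as the root mean square difference of log2 CPM centred on each gene's mean, over the 5 libraries and the 9 genes tested. The closest pair was Sparcl1 and Thbs3 at 0.106, and the farthest was Sparc and Thbs2 at 0.806. A small value can also come from genes that vary little. Thbs3 and Gpc4, which separated in opposite directions, were at 0.313, below Sparc and Sparcl1 at 0.347. These values describe levels that share library scaling, and no test was made of them.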

How the data were processed

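Per the submitters' processing notes, the tools included STAR 2.7.5c, fastp 0.23.2 and featureCounts 2.0.1, with builds GRCm38 and mm10. Their settings, the annotation and strand use were not given in the sources used here. The authors deposited whole-number read counts per gene, unscaled and not pooled. Saline columns were matched to replicates by the number in their names, and the libraries labelled DTx to their group alone. Values of 1 other sample column were left unused. All 10 pairs of libraries differed beyond sampling noise (chi-square per degree of freedom at least 14.25).

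Under R 4.3.3, edgeR 4.0.16 tested the counts after filterByExpr (minimum count 10) and TMM scaling, by the robust quasi-likelihood F test and Benjamini-Hochberg adjustment over 15532 genes. The SE is the size of the log2 fold change divided by the root of F. CPM is TMM-scaled, and levels per kb use merged exons of GENCODE M21. Alternatives used DESeq2 1.42.0, limma 3.58.1, other scalings and filters, a microglia covariate and each library left out. Coordinates and promoters come from RefSeq, GRCm38.p6, which held 32501 of 35976 symbols, all 10 members and 6 of their promoters. Protein identity was not computed, since protein sequences were not used here. The members and lists were chosen with earlier results of these data known. All members were named, with the 3 genes of smallest p in each partner list and the 2 most abundant of each marker list given beside a result, except 1 marker that is not reported here. Mtx1 was named after its overlap was seen, and Ly6c2, S100a8, S100a9 and Plac8 after their counts were seen. Pdgfra, Neu4 and Lhfpl3 were named after their values were seen.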

Additional observations from a re-analysis of the deposited data

How the results depend on the processing

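Of the 9 members tested, 0 passed the threshold under each alternative run. Sparc, Sparcl1, Thbs1, Thbs2, Thbs3 and Gpc4 kept the sign of their log2 fold change under every alternative in which they were tested. When the mean of the microglia markers entered as a covariate, the values of Gpc5, Gpc6 and Chrdl1 were -0.16 ± 0.24, -0.76 ± 0.22 and -0.40 ± 0.71 (SE). Each had an edgeR adjusted p of 0.999 in that fit. With limma-voom the value of Chrdl1 was -0.037. With each library left out in turn, Gpc5 ran from -0.040 to 0.77, Gpc6 from -0.38 to 0.74 and Chrdl1 from -0.46 to 0.47. The adjusted p of Sparc was 0.122 with DESeq2, 0.231 with the likelihood ratio test and 0.784 with limma-voom.

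Over all genes, 4 were called higher, the Y-linked Ddx3y, Eif2s3y, Uty and Kdm5d, and 1 lower, Xist. DESeq2 called 95 higher and 16 lower, the likelihood ratio test 86 and 14, and the microglia covariate gave 2 higher. The cause was not tested. With a library left out, 2 (without 6A) to 12 (without 7A) were higher and 1 to 2 (without saline replicate 2) lower. Members above saline without overlap numbered 2 (without 5A or 6A) to 5 (without saline replicate 2), which fewer samples allow, and 4 without library 7A. With total-count scaling 1 member, Thbs2, lay below saline. The share over all genes was not computed for these runs, so these counts of members cannot be set against a background. The earlier quasi-likelihood method of edgeR, added after seeing the data, moved no call. No paired analysis was possible because the columns of the DTx libraries carry no replicate number of the labels. With 2 and 3 libraries, low counts limit Thbs1, Thbs4 and Chrdl1 most.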
